A study of Homo sapiens with 18 samples.

Results

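The comparison described here sets HMC3 cells given 10 µg/ml oxidized low-density lipoprotein (oxLDL) for 24 h against the same cells given 0, 1 or 2.5 µg/ml for 24 h. It uses 12 of the 18 libraries of a dose series: 3 libraries at 10 µg/ml, and as reference the 3 libraries at each of the 3 lower doses, pooled as 9. The members were set by dose, and they and the gene lists were chosen with earlier results of these data known. HMC3 is an immortalized line that the labels call microglial and wild type, and 1 batch value is given for all libraries. The study's title names CD36, lipid-laden microglia and the NLRP3 pathway, and the comparison asks which transcripts had changed at 10 µg/ml. FPKM is a number of fragments scaled by gene length and library total. Of 13992 listed genes, 12024 reached 0.5 FPKM in 3 or more of these 12 libraries and were tested. Nothing in the labels ties the libraries of 1 dose to separate cultures, and p-values here speak only of the spread between libraries, possibly a technical one.

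OxLDL carries oxidized lipids and cholesterol, and enters cells through scavenger receptors. Oxidized lipids can modify KEAP1, which otherwise marks the transcription factor NRF2 for destruction. NRF2 then pairs with small MAF proteins on antioxidant response elements near genes for glutathione, thioredoxin and quinone metabolism. Cholesterol is sensed separately, since sterol-rich membranes let INSIG proteins hold SCAP and SREBP2 in the endoplasmic reticulum, and genes of cholesterol synthesis are then transcribed less.

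At 10 µg/ml the response was small. SLC7A11, which imports cystine for glutathione synthesis, rose by 0.44 on the log2 scale, and NQO1, a quinone reductase and standard NRF2 target, rose by 0.26. TINAGL1, a secreted matrix glycoprotein, fell by 0.27, and LINC01109, a long noncoding RNA, fell by 0.21. In bulk RNA, fewer cells with a transcript and less of it per cell cannot be told apart. These were the only genes called of 12024, which is 0.0333% of those tested, or 0.0166% in each direction. The call rule was an adjusted p under 0.05 from limma on log2(FPKM + 0.5). The added 0.5 makes fold changes of genes at low FPKM look smaller than they are. At an unadjusted p under 0.05 there were 1478 genes, or 12.3%, with 799 of them higher (6.65%) and 679 lower (5.65%) at 10 µg/ml. Leaving out library 2 or library 3 at 10 µg/ml left 0 genes called in either fit. The genes at an unadjusted p under 0.05 then numbered 803 without library 2 and 1259 without library 3. Leaving out library 1 at 10 µg/ml gave 9 called genes, among them the same 4. LINC01109 lies outside the rule for named genes and was singled out after its values were seen.

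Promoter sequence of 3 genes of the NRF2 group is shown because these genes were high together at 10 µg/ml. NQO1 was called, while TXNRD1 and GCLM had all 3 libraries at 10 µg/ml above all 9 pooled libraries without being called. Each window runs from 250 bases before to 50 after the RefSeq start in GRCh38.p14, 5′ to 3′ on the gene's strand. Capitals mark the letters TGACNNNGC, the core of the antioxidant response element, searched on both strands. The NQO1 window is chr16:69726511-69726810 on the minus strand. The TXNRD1 window is chr12:104215529-104215828 on the plus strand, and another window of the gene, chr12:104286782-104287081, held 1 match. The GCLM window is chr1:93909381-93909680 on the minus strand.
NQO1: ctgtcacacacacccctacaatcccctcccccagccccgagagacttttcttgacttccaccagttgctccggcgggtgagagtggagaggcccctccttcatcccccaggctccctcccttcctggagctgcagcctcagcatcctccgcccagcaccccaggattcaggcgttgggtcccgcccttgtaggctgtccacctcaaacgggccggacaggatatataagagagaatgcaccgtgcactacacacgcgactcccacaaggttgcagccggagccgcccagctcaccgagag
TXNRD1: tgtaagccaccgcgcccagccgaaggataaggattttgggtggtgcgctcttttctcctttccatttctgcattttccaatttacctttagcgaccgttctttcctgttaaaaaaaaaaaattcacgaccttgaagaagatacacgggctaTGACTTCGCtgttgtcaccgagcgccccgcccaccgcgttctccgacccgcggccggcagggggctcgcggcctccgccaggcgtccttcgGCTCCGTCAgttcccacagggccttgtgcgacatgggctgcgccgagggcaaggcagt
GCLM: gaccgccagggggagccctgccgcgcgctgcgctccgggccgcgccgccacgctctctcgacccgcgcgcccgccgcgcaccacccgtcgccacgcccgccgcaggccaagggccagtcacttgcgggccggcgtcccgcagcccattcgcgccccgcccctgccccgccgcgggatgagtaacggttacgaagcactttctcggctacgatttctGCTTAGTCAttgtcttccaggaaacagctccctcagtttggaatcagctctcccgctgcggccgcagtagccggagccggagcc
The TXNRD1 window held 2 matches, TGACTTCGC at position -99 and GCTCCGTCA, on the other strand, at -8. The GCLM window held 1, GCTTAGTCA at -34 on the other strand, and these letters were not in the NQO1 window. The letters occurred in 13.3% of 35116 promoter windows of the same length (16.1% of 27305 gene symbols), and in 13 of 40 tested genes of the NRF2 lists with a window. Of the NRF2-list genes above all pooled libraries at 10 µg/ml, 4 had a window. The letters were found in 2 of these 4, TXNRD1 and GCLM.

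SLC7A11 encodes the cystine-importing subunit of the cystine and glutamate exchanger and lies at chr4:138164097-138242349 in GRCh38.p14. Its FPKM was 2.05, 2.14 and 2.22 in the 3 libraries at 10 µg/ml, against a lowest of 1.31, a median of 1.42 and a highest of 1.70 in the 9 pooled libraries. All 3 libraries at 10 µg/ml were above every pooled one. The means were 2.14 ± 0.085 (SD, n = 3) and 1.44 ± 0.12 (SD, n = 9), and the log2 fold change was 0.44 (SE 0.058, adjusted p = 0.0111, limma). The gene carried 399 to 925 reads in these libraries, recovered from the FPKM steps. Within the pooled libraries the mean FPKM by dose was 1.36 ± 0.055 with none, 1.42 ± 0.019 with 1 µg/ml and 1.56 ± 0.13 with 2.5 µg/ml (SD, n = 3 each). Against 2.5 µg/ml alone the call was lost (adjusted p = 0.153, limma). SLC7A11-AS1 overlaps it on the opposite strand, and the library kit does not mark strand.

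NQO1, which reduces quinones with NADPH, lies at chr16:69709401-69726560. Its FPKM was 77.9, 74.3 and 75.5 at 10 µg/ml, against 59.8, 63.6 and 67.3 (lowest, median and highest) in the pooled libraries, so the groups did not overlap. It averaged 75.9 ± 1.8 FPKM at 10 µg/ml (SD, n = 3) and 63.5 ± 2.3 in the pooled libraries (SD, n = 9), a log2 fold change of 0.26 (SE 0.032, adjusted p = 0.0111, limma). This was 19.5% above the pooled mean. The gain was lost as a call against 1 µg/ml alone (adjusted p = 0.0666) and against 2.5 µg/ml alone (adjusted p = 0.136).

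TINAGL1, at chr1:31576515-31587686, had 31.5, 30.1 and 28.3 FPKM at 10 µg/ml, against 33.9, 36.8 and 38.2 FPKM (lowest, median and highest) in the pooled libraries. Every library at 10 µg/ml was below every pooled one. The means were 29.9 ± 1.6 FPKM at 10 µg/ml (SD, n = 3) and 36.3 ± 1.5 in the pooled libraries (SD, n = 9), and the log2 fold change was -0.27 (SE 0.040, adjusted p = 0.0213, limma). TINAGL1 was also not called without library 1 at 1 µg/ml (adjusted p = 0.0534), nor in a fit without the variance trend (adjusted p = 0.0879). Against 0, 1 or 2.5 µg/ml alone its adjusted p was 0.0534, 0.187 and 0.136.

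LINC01109 had 29.2, 29.2 and 28.4 FPKM at 10 µg/ml, against 32.3, 33.6 and 35.3 (lowest, median and highest) in the pooled libraries. The groups did not overlap, and the means were 28.9 ± 0.44 FPKM (SD, n = 3) and 33.5 ± 0.99 (SD, n = 9), with a log2 fold change of -0.21 (SE 0.029, adjusted p = 0.0133, limma). It overlaps LINC01111 on the same strand, so its reads may be shared. The call was lost after adjustment for gene length (-0.15, adjusted p = 0.220), with limma-voom on recovered reads (adjusted p = 0.0725) and without the variance trend (adjusted p = 0.0715). Against 0, 1 or 2.5 µg/ml alone, its adjusted p was 0.198, 0.0871 and 0.136.

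The 4 called genes were further from the pooled level at the higher doses. SLC7A11 averaged 5.72 ± 0.39 FPKM with 50 µg/ml, then 9.16 ± 0.66 with 100 µg/ml, and NQO1 140.3 ± 7.4 and 179.5 ± 7.1 (SD, n = 3 each). TINAGL1 averaged 21.1 ± 0.054 and 16.8 ± 1.3 FPKM at these doses, and LINC01109 22.5 ± 0.88 and 19.2 ± 0.51 (SD, n = 3 each). All 3 libraries at 50 µg/ml lay beyond all 3 at 10 µg/ml in each of the 4. Over all 12024 genes this was so for 9.44% upward and 11.8% downward.

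**Figure D1:**
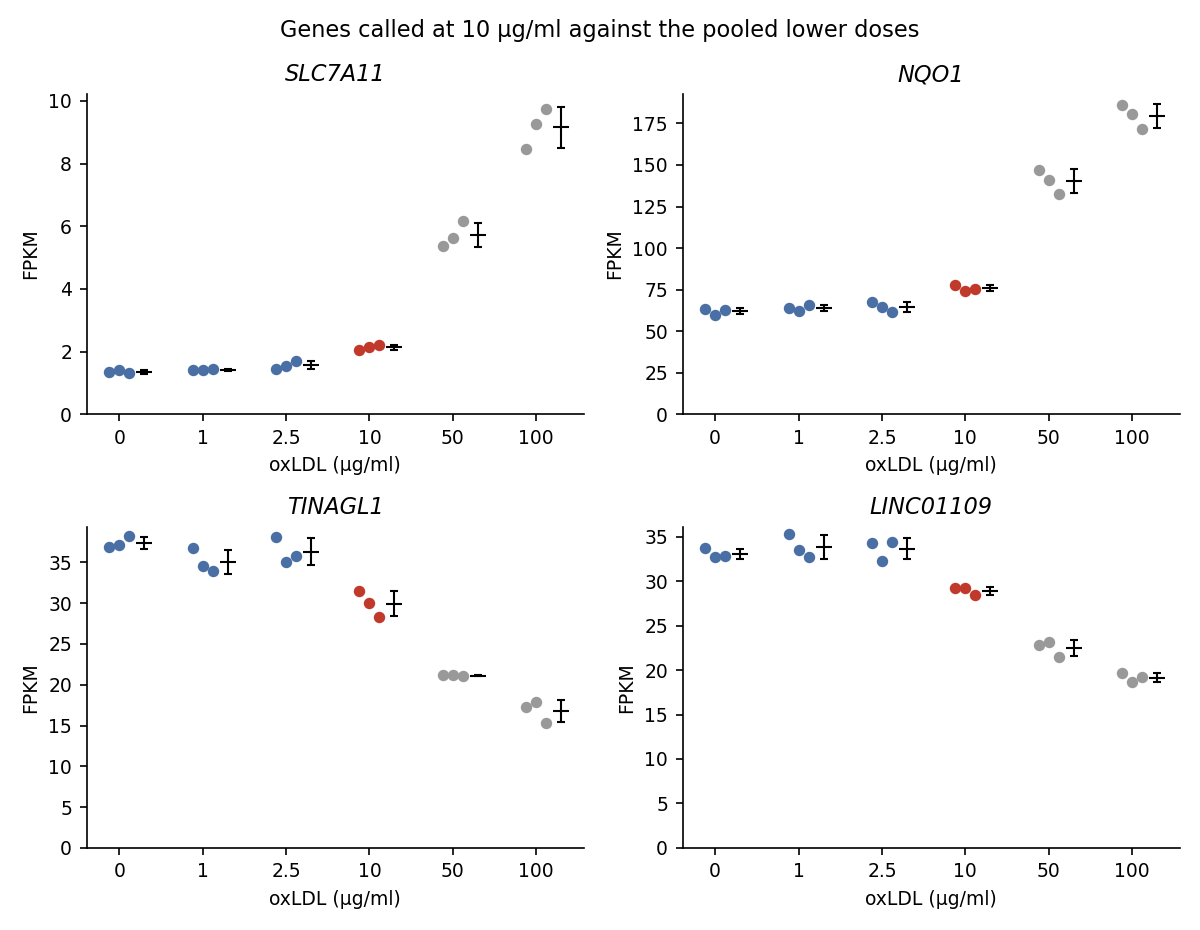
FPKM of SLC7A11, NQO1, TINAGL1 and LINC01109 (y axis, from 0) at each oxLDL dose in µg/ml (x axis). Points are single libraries, red at 10 µg/ml, blue at the 3 pooled doses and grey at 50 and 100 µg/ml, and black bars are mean ± SD (n = 3). The 3 red points lie above all blue points for SLC7A11 and NQO1 and below them for TINAGL1 and LINC01109.

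Genes linked to NRF2 were arranged in 4 lists with 65 members, of which 56 had a value and 53 were tested. Of these, 2 were called, both higher (SLC7A11 and NQO1), against 0.0166% of all genes tested called higher. All libraries at 10 µg/ml lay above all pooled ones for 6 of the 53, against 1.1% of all genes tested. The other 4 were GCLM, GSR, TXNRD1 and UGDH. In the other direction IDH1 and AKR1B1 had all libraries at 10 µg/ml below, against 1.03% of all genes. The median log2 fold change over the 53 was 0.0070, beside 0.014 over all genes tested, and 27 of the 53 were above 0 beside 56.9% of all genes. At 50 and 100 µg/ml, set against the same pooled libraries, the median over the 53 was 0.15 and 0.28. SLC7A11 also belongs to the list of integrated stress response (ATF4) genes, so its rise is not specific to the NRF2 lists. It was the only called gene of 29 tested there, and that list's median at 10 µg/ml was -0.0077.

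Among glutathione genes, GCLM, the modifier subunit of the enzyme that makes the glutathione precursor, had 5.97, 6.34 and 7.09 FPKM at 10 µg/ml, against 5.04, 5.35 and 5.88 (lowest, median and highest) in the pooled libraries. The groups did not overlap, but the difference was not called (log2 fold change 0.23, SE 0.053, adjusted p = 0.209, limma). GCLC, the catalytic subunit, averaged 11.2 FPKM at 10 µg/ml and 10.6 in the pooled libraries (0.08, adjusted p = 0.526, limma, or 0.037 without library 3). GSR, which regenerates reduced glutathione, had 15.20, 15.17 and 14.52 FPKM at 10 µg/ml, against 13.26 to 14.50 in the pooled libraries, a narrow separation (0.11, SE 0.034, adjusted p = 0.316). SLC3A2, the partner chain of SLC7A11 in the exchanger, averaged 86.0 FPKM at 10 µg/ml and 88.9 in the pooled libraries (-0.05, adjusted p = 0.610, or 0.0035 without library 3). GPX4, which reduces lipid peroxides, had 239.8, 234 and 216 FPKM at 10 µg/ml, with library 3 below the pooled range of 229.8 to 273 and libraries 1 and 2 inside it (-0.12, adjusted p = 0.351, or -0.073 without library 3).

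Among thioredoxin and NADPH genes, TXNRD1, the cytosolic thioredoxin reductase, had 141, 140.3 and 144 FPKM at 10 µg/ml, against 114, 123 and 132 (lowest, median and highest) in the pooled libraries. The groups did not overlap and the log2 fold change was 0.21 (SE 0.038, adjusted p = 0.0902, limma). It was called with limma-voom (adjusted p = 0.0207), after length adjustment (0.0386), in a fit of all 18 libraries (0.0186) and without library 3 at 2.5 µg/ml (0.0312). EID3 shares its strand and position. TXN, PRDX1, TKT and TALDO1, which were each higher in mean FPKM at both 50 and 100 µg/ml than in the pooled libraries, lay between -0.03 and 0.04 at 10 µg/ml, with adjusted p from 0.515 to 0.943. SRXN1, which restores oxidized peroxiredoxins, averaged 25.8 FPKM at 10 µg/ml and 24.7 in the pooled libraries (0.06, adjusted p = 0.443).

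Among heme, iron and detoxification genes, UGDH, which makes the sugar donor of glucuronidation, had 23.06, 23.04 and 21.95 FPKM at 10 µg/ml, against 19.3, 20.1 and 20.7 (lowest, median and highest) in the pooled libraries. The groups did not overlap and the log2 fold change was 0.17 (SE 0.028, adjusted p = 0.0620, limma). UGDH was called in the fit of all 18 libraries (adjusted p = 0.0192) and after length adjustment (0.0419). HMOX1, heme oxygenase 1, had 10.3, 8.77 and 9.32 FPKM at 10 µg/ml, inside the pooled range of 8.03 to 10.4. Its log2 fold change was 0.05 with a 95% interval of -0.08 to 0.18 (adjusted p = 0.733, limma). HMOX1 averaged 24.1 ± 1.8 FPKM with 50 µg/ml, then 43.4 ± 2.6 with 100 µg/ml (SD, n = 3 each). OSGIN1 had 3.81, 5.00 and 4.91 FPKM at 10 µg/ml, with libraries 2 and 3 above the pooled highest of 4.37 and library 1 below it (0.21, SE 0.077, adjusted p = 0.347, or 0.32 without library 1). TRIM16 and its near copy TRIM16L, between which reads may be split, stood at 0.13 and 0.17 (adjusted p = 0.316 and 0.375). TRIM16L had 7.62, 6.01 and 6.07 FPKM at 10 µg/ml, against 5.04 to 6.32 in the pooled libraries, and stood at 0.065 without library 1. FTL, the ferritin light chain, stood at 0.05 (adjusted p = 0.601).

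Of the factor itself and its partners none of the 9 tested was called, beside 0.0333% of all genes tested. NFE2L2, which encodes NRF2, averaged 31.7 FPKM at 10 µg/ml and 32.9 in the pooled libraries (log2 fold change -0.05, adjusted p = 0.466, limma), and KEAP1 25.3 and 25.4 FPKM (-0.01, adjusted p = 0.927). MAFG, a small MAF partner, had a log2 fold change of 0.11 (adjusted p = 0.390).

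**Figure D2:**
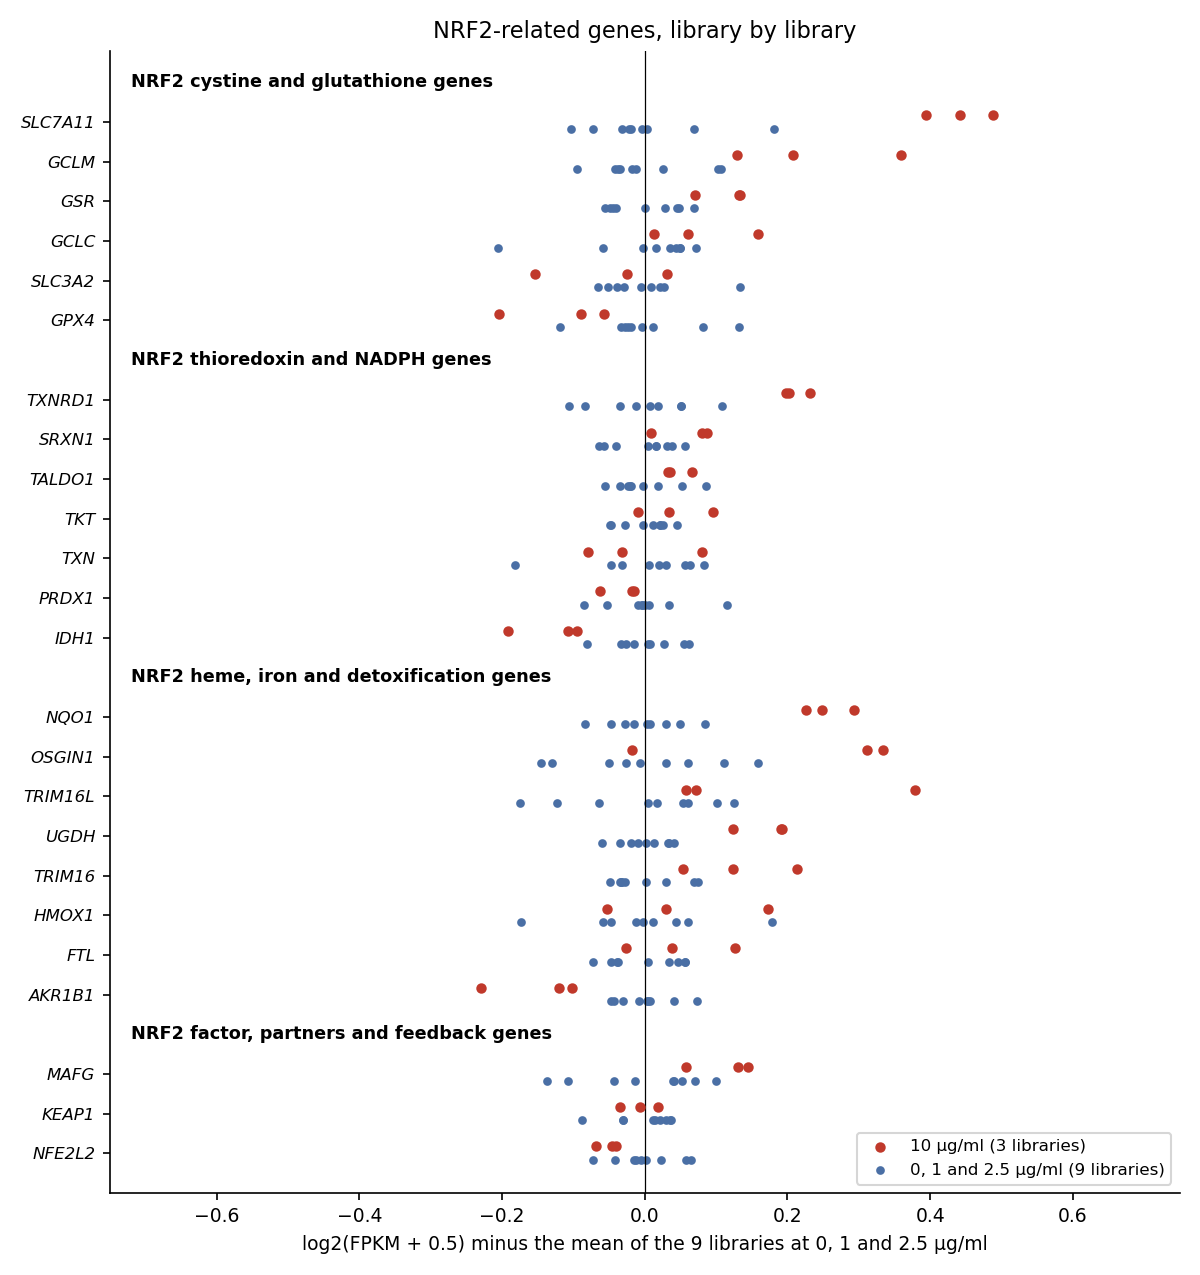
Log2(FPKM + 0.5) of each library minus the mean of the 9 pooled libraries (x axis), for the NRF2-related genes named in the text, in 4 lists (rows); large red points are the 3 libraries at 10 µg/ml and small blue points the 9 pooled ones. SLC7A11, GCLM, GSR, TXNRD1, NQO1 and UGDH have all red points right of all blue ones, and most other rows overlap.

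The list of cholesterol synthesis genes had 27 members, 25 of them tested. None was called at an adjusted p under 0.05, beside 0.0333% of all genes tested. An unadjusted p under 0.05 was found for 16, all lower at 10 µg/ml, beside 5.65% of all genes tested. All libraries at 10 µg/ml lay below all pooled ones for 8 of the 25, against 1.03% of all genes tested, namely INSIG1, ACAT2, HMGCS1, IDI1, FDPS, CYP51A1, TM7SF2 and MSMO1. In all, 23 of the 25 had a log2 fold change below 0, beside 43.1% of all genes. The list's median was -0.14, beside 0.014 over all genes, and against the same pooled libraries it was -0.26 with 50 µg/ml, then -0.29 with 100 µg/ml.

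The 3 libraries at 10 µg/ml differed in this list. The median over the 25 genes, relative to the pooled mean, was -0.079, -0.11 and -0.26 in libraries 1, 2 and 3, against -0.053 to 0.081 in the pooled libraries. Library 3 stood with the libraries at 50 µg/ml, which had -0.24, -0.22 and -0.27. Without library 3 the list's median at 10 µg/ml was -0.089, and its range over all settings tried was -0.19 to -0.089. Library 3 also stood apart from libraries 1 and 2 at 10 µg/ml on the second principal component of the 12 libraries, which held 12.6% of the variance, with a score of -10.9 beside 4.84 and -1.28.

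INSIG1, the sterol-responsive protein that retains SCAP, had 14.9, 14.4 and 10.9 FPKM at 10 µg/ml, against 16.5, 17.1 and 19.1 (lowest, median and highest) in the pooled libraries. The groups did not overlap, and library 3 was far below libraries 1 and 2. The log2 fold change was -0.37 (SE 0.074, adjusted p = 0.117, limma), and -0.24 without library 3. With limma-voom INSIG1 was called (adjusted p = 0.0323). HMGCS1, which makes HMG-CoA, had 9.27, 8.40 and 7.31 FPKM at 10 µg/ml, against 9.31, 10.3 and 11.8 in the pooled libraries. The groups were separated narrowly, and the log2 fold change was -0.30 (SE 0.068, adjusted p = 0.215, limma).

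Of the other enzymes in the list, IDI1, the isopentenyl diphosphate isomerase, had a log2 fold change of -0.22 (SE 0.043, adjusted p = 0.117, limma). MSMO1, a C4-methylsterol oxidase, stood at -0.24 (SE 0.048, adjusted p = 0.137). Both were called without library 1 at 10 µg/ml (adjusted p = 0.0238 each). FDPS, which joins isoprenoid units, and CYP51A1, the lanosterol demethylase, each stood at -0.16 (adjusted p = 0.246 and 0.286), and CYP51A1 at -0.089 without library 3. ACAT2, an acetoacetyl-CoA thiolase, also stood at -0.16 (adjusted p = 0.137) and overlaps other genes on the opposite strand. TM7SF2, a sterol reductase, had 7.55, 7.45 and 7.50 FPKM at 10 µg/ml, against a pooled lowest of 7.58 (-0.10, adjusted p = 0.375). The members above 0 were SCAP and LSS, at 0.06 and 0.04.

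**Figure D3:**
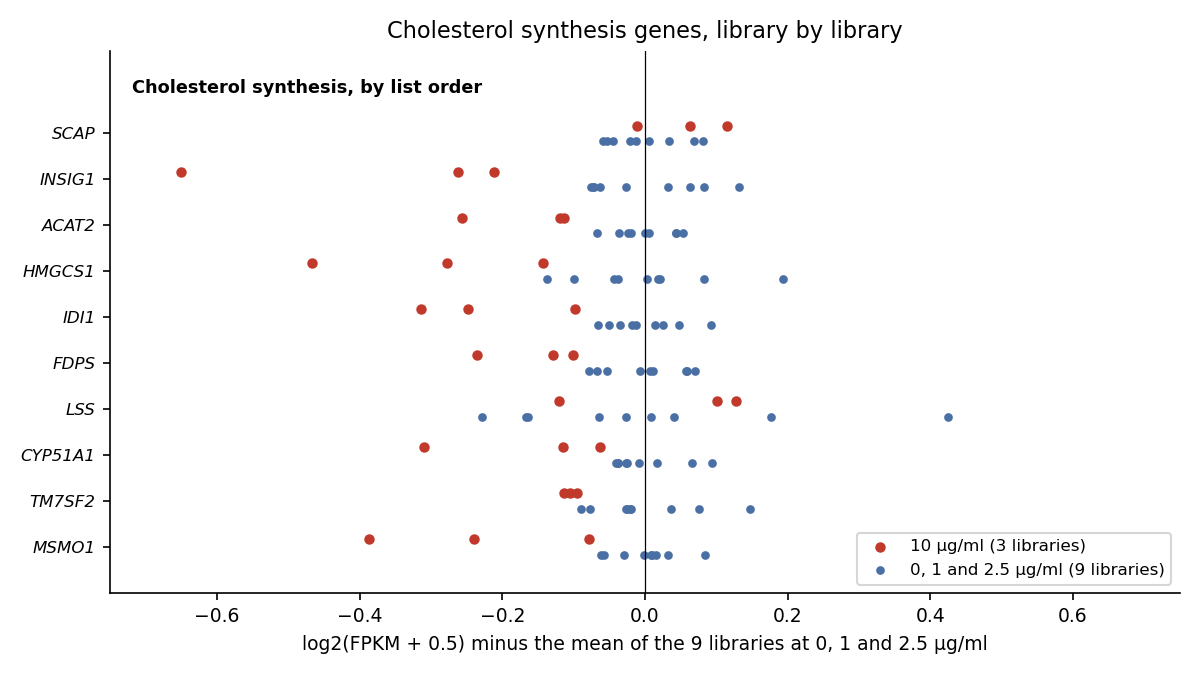
Log2(FPKM + 0.5) of each library minus the mean of the 9 pooled libraries (x axis) for the cholesterol synthesis genes named in the text (rows), with the 3 libraries at 10 µg/ml as large red points and the 9 pooled libraries as small blue points. In 8 rows all red points lie left of all blue ones, the furthest for INSIG1, while SCAP and LSS average above 0.

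Of fatty acid synthesis genes 16 were tested and none was called, beside 0.0333% of all genes tested. The median log2 fold change was -0.017. SCD, the stearoyl-CoA desaturase, had 38.1, 36.2 and 28.9 FPKM at 10 µg/ml, against 36.8, 42.0 and 46.2 (lowest, median and highest) in the pooled libraries. Library 3 was well below the rest, and the log2 fold change was -0.27 (SE 0.074, adjusted p = 0.286, limma), or -0.15 without library 3. FADS2, a fatty acid desaturase, stood at -0.19 with no overlap between groups (adjusted p = 0.314), and at -0.12 without library 3. The gene overlaps FADS1 and FEN1.

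Among lipid storage and scavenger receptor genes, none of 19 lipid droplet genes and none of 13 tested receptors was called. Over all genes tested the share called was 0.0333%. PLIN2, the lipid droplet coat protein, had 22.6, 23.4 and 24.8 FPKM at 10 µg/ml, against 21.5, 23.1 and 24.6 (lowest, median and highest) in the pooled libraries. The groups overlapped, and the log2 fold change was 0.04, with a 95% interval of -0.04 to 0.12 (adjusted p = 0.659, limma). PLIN2 averaged 32.9 ± 1.3 FPKM with 50 µg/ml, then 39.8 ± 0.83 with 100 µg/ml (SD, n = 3 each). OLR1, the lectin-like oxLDL receptor, had 3.21, 2.17 and 1.47 FPKM at 10 µg/ml, against 2.31 to 3.62 in the pooled libraries. Libraries 2 and 3 lay below the pooled range and library 1 within it, and the log2 fold change was -0.41 (SE 0.152, adjusted p = 0.348, limma), or -0.18 without library 3. ABCA1, which exports cholesterol, had 0.818, 0.696 and 0.663 FPKM at 10 µg/ml, against 0.513 to 0.676 in the pooled libraries (0.15, SE 0.063, adjusted p = 0.371). CD36 was not analysed here.

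ANGPTL4, a PPAR target that inhibits lipoprotein lipase, was below the filter. It had 0.199, 0.223 and 0.400 FPKM at 10 µg/ml, against 0.128 to 0.341 in the pooled libraries, and rested on 4 to 20 reads per library. An exact two-sided permutation test gave p = 0.545, where 3 against 9 libraries allow 0.00909 at the smallest. Its mean was 2.70 ± 0.93 FPKM with 50 µg/ml, then 8.70 ± 0.94 with 100 µg/ml (SD, n = 3 each).

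**Figure D4:**
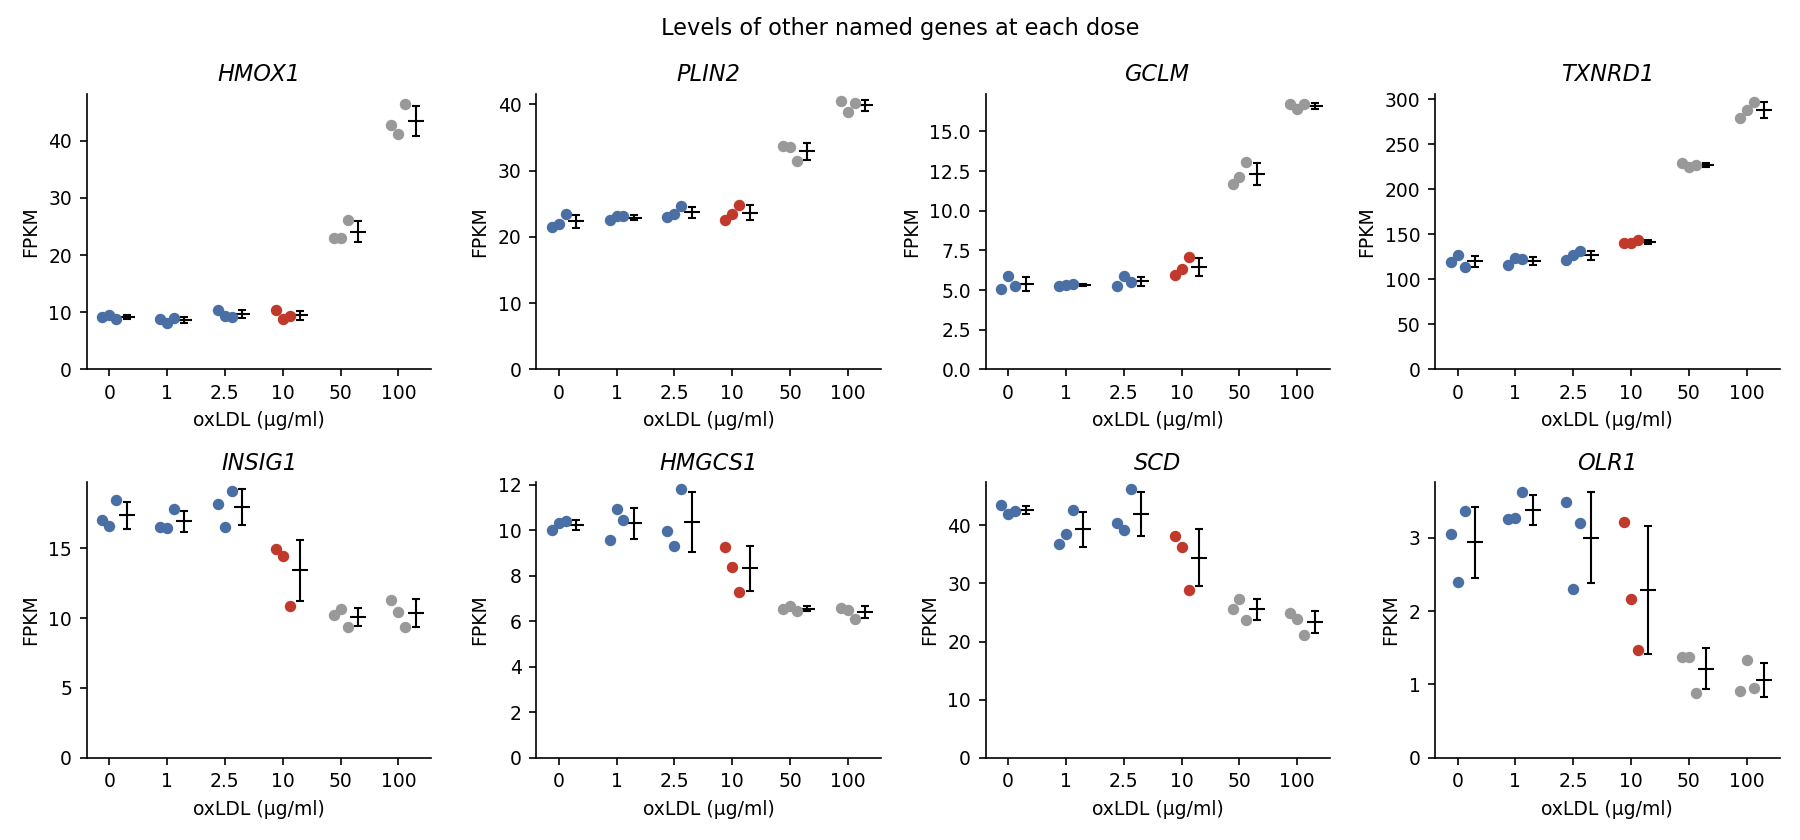
FPKM (y axis, from 0) of HMOX1, PLIN2, GCLM, TXNRD1, INSIG1, HMGCS1, SCD and OLR1 at each oxLDL dose in µg/ml (x axis), with single libraries as points (red 10 µg/ml, blue the pooled doses, grey 50 and 100 µg/ml) and black bars for mean ± SD (n = 3). At 10 µg/ml HMOX1 lies among the pooled libraries, PLIN2 overlaps them with 1 of its 3 points just above, and 1 library at 10 µg/ml is near the 50 µg/ml level for INSIG1, SCD and OLR1.

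For the NLRP3 inflammasome and IL-1, none of 13 tested genes was called, beside 0.0333% of all genes tested. With so few calls over all genes, none among 13 says little about the list. The median log2 fold change was 0.034, beside 0.014 over all genes. IL1B had 1.85, 2.04 and 1.94 FPKM at 10 µg/ml, against 1.65, 2.17 and 2.87 (lowest, median and highest) in the pooled libraries. The groups overlapped, and the log2 fold change was -0.16, with a 95% interval of -0.38 to 0.06 (adjusted p = 0.516, limma). IL18 had 15.5, 14.1 and 13.9 FPKM at 10 µg/ml, against 12.8 to 16.3 in the pooled libraries (0.01, 95% interval -0.11 to 0.13, adjusted p = 0.943). CASP1, the protease that matures both cytokines, had 0.472, 0.529 and 0.529 FPKM at 10 µg/ml, against 0.528 to 0.699 in the pooled libraries (-0.14, SE 0.063, adjusted p = 0.380), on 28 to 48 reads per library. NLRP3, the sensor, was below the filter at 0.231, 0.227 and 0.272 FPKM at 10 µg/ml, against 0.180 to 0.361 in the pooled libraries, with an exact two-sided permutation p of 0.836. At 21 to 35 reads per library a small difference in NLRP3 was not detectable. PYCARD was not analysed here.

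Of 20 tested NF-kB cytokines and chemokines none was called, beside 0.0333% of all genes tested. In this list 15 were below 0, beside 43.1% of all genes. The median was -0.091, or -0.027 without library 3 at 10 µg/ml. CCL2, a monocyte chemoattractant, had 3.03, 2.68 and 2.29 FPKM at 10 µg/ml, against 3.10, 3.88 and 4.55 (lowest, median and highest) in the pooled libraries. The groups did not overlap, on 37 to 82 reads per library, and the log2 fold change was -0.45 (SE 0.087, adjusted p = 0.117, limma), with a call (adjusted p = 0.0494) once library 2 at 0 µg/ml was left out. EGR1, a zinc finger factor of the early response, had 9.35, 5.70 and 3.99 FPKM at 10 µg/ml, against 7.55 to 10.7 in the pooled libraries (-0.60, SE 0.162, adjusted p = 0.283). Library 1 lay inside the pooled range and libraries 2 and 3 below it. EGR1 stood at -0.34 without library 3, and at -0.90 without library 1, where it was called (adjusted p = 0.0238, limma). CCL2 and EGR1 were singled out after their values were seen.

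Ribosomal proteins (57 tested) and nuclear genes of the respiratory chain (28 tested) had 0 members above 0 and none called. Over all genes tested 56.9% were above 0 and 0.0333% were called. The medians of the 2 lists were -0.070 and -0.068. The per-library medians of ribosomal proteins were -0.093, -0.083 and -0.026 at 10 µg/ml, inside the -0.15 to 0.079 of the pooled libraries. That range owes its low end to library 3 at 2.5 µg/ml, and the next lowest pooled library was at -0.029. For the respiratory chain the medians were -0.084, -0.066 and -0.061 at 10 µg/ml. Library 3 at 2.5 µg/ml was at -0.12 there, and the next lowest pooled library at -0.018. Both lists hold short genes, with median lengths of 1131 and 1578 bases beside 3907 over all genes. Log2 fold changes moved with gene length: the median was -0.045, -0.010, 0.016, 0.036 and 0.047 in 5 equal bins from shortest to longest genes. The pooled libraries differed in the direction of this trend. Library 3 at 2.5 µg/ml ran the same way most strongly, at -0.073 in the shortest and 0.095 in the longest bin. Library 1 at 1 µg/ml ran the opposite way most strongly, at 0.045 and -0.063, followed by library 3 at 0 µg/ml, at 0.037 and -0.047. After adjustment for gene length, added after the data were seen, the median was -0.024 for ribosomal proteins and -0.042 for the respiratory chain. Mitosis genes had 32 of 43 above 0, beside 56.9% of all genes, a median of 0.028 and none called. Their per-library medians at 10 µg/ml were 0.0052, 0.0030 and 0.086, against -0.041 to 0.026 in the pooled libraries, and without library 3 at 10 µg/ml the median was 0.0025.

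**Figure D5:**
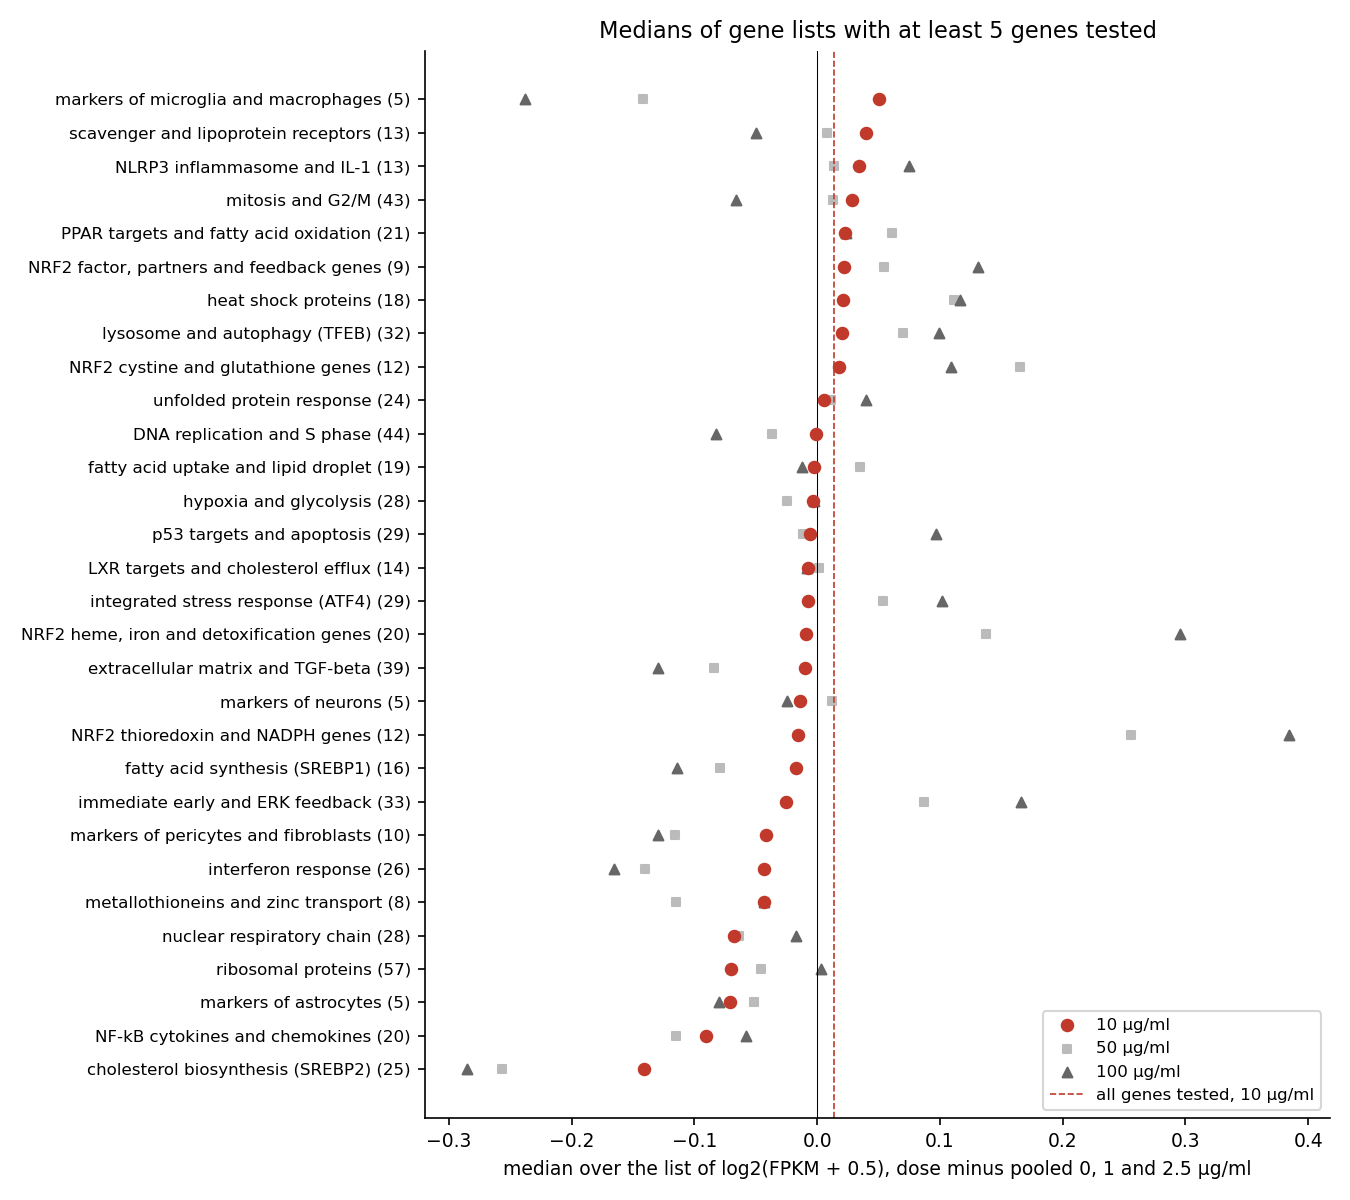
Median over each gene list (rows, number tested in brackets, lists with at least 5 tested) of log2(FPKM + 0.5) at 10 µg/ml (red circles), 50 µg/ml (light squares) and 100 µg/ml (dark triangles) minus the pooled 0, 1 and 2.5 µg/ml, which all 3 share. The dashed line is the median over all genes at 10 µg/ml, 0.014, and the lowest red circle is the cholesterol list, at -0.14.

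The reference doses gave no called gene among themselves: a limma F test over 0, 1 and 2.5 µg/ml called 0 of 12024 genes, with 472 at an unadjusted p under 0.05, and limma-voom also called 0. Without library 1 or library 3 at 2.5 µg/ml 1 gene was called in each fit. Depth was 18639254 to 25947039 reads at 10 µg/ml and 16203259 to 27908485 in the pooled libraries. The microglial label could be checked on few genes: 6 of 33 markers of microglia and macrophages had a value, and AIF1, ITGAM, CSF1R, CX3CR1, P2RY12, TMEM119, TREM2 and SPI1 were not analysed here. The 6 summed to 75.4 to 85.8 FPKM at 10 µg/ml and 71.5 to 76.1 in the pooled libraries. Pericyte and fibroblast markers, 12 of 18 with a value, summed to 1462 to 1600.0 FPKM at 10 µg/ml and 1493 to 1617 in the pooled libraries.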

How the data were processed

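The deposited table holds FPKM per gene symbol, as made by the authors, for 18 libraries, 12 of them compared here. Per the submitters' processing notes, the tools were featureCounts, DESeq2 and HISAT2 2.0.5 and the build hg38, with roles not stated. The annotation and the rule for listing genes are not given in the sources used here. Per the labels' protocols, poly-A RNA was sequenced as paired ends with a kit that does not mark strand.

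Values were taken as log2(FPKM + 0.5). The 3 libraries at 10 µg/ml were compared with the 9 pooled ones in limma 3.58.1 (R 4.3.3), with the eBayes variance trend, 10 residual degrees of freedom, two-sided tests and Benjamini-Hochberg adjustment over all 12024 genes. Because the unit is FPKM, no count model was the main test. FPKM steps gave whole reads, within 0.05, for 13989 of 13992 genes (99.98%). These served for depth, gene length and limma-voom. Their absolute scale rests on gene lengths, equal to RefSeq for 69.7% of 340 single-exon genes. Counting error is only the lower limit of each value's error. No 2 libraries of a dose agreed within counting noise (lowest chi-square per degree of freedom 2.00). The code was tested on simulated data. Gene positions and promoters are from RefSeq, overlaps from GENCODE.

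The members and lists were chosen with earlier results of these data known. Named genes are: the 12 largest rises and falls among genes called in all 12 fits that leave out 1 library, with a mean FPKM of at least 1 and no overlap between groups (there were none), up to 4 called members per list, and CD36, NLRP3, IL1B, CASP1, PYCARD, IL18, PLIN2, ANGPTL4, HMOX1, SLC7A11, NQO1, GCLM, ABCA1, HMGCS1, SCD and OLR1. Some genes of the fixed names and lists are not reported here. LINC01109 and all other genes named were chosen after their values were seen. Alternatives were pseudocounts, filters, scaling, reference dose, variance model, replicate block, limma-voom, each library left out and, added after the data were seen, an adjustment for gene length.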

Additional observations from a re-analysis of the deposited data

How the results depend on the processing

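The 4 calls stayed at 4, and were the same genes, with pseudocounts of 0.1 or 1, with no filter, with an FPKM filter of 1 and after rescaling by the median ratio. The count was 6 with 4 dose means, with limma-voom (3 shared) and after length adjustment (3 shared). It was 9 in a fit of all 18 libraries, 2 without the variance trend, 2 against 0 µg/ml alone, 3 against 1 µg/ml alone and 1 against 2.5 µg/ml alone. Leaving out each library in turn gave 0 to 9. The cause of these differences was not tested. Among the reference doses the count was 0, and 0 to 1 with a library left out.

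Of 752 refits of 29 genes, 709 kept direction and side of the threshold, 15 gained a call, 22 lost one and 6 changed sign, none of those 6 called. All 22 losses were in SLC7A11, NQO1, TINAGL1 and LINC01109, the only genes that had a call to lose. The 709 are mostly refits of genes that were not called to begin with. IL18 was -0.073 against 1 µg/ml alone, and -0.0078 and -0.034 without library 2 at 2.5 µg/ml or library 1 at 10 µg/ml, with a range of -0.034 to 0.040 over the fits that leave out 1 library. PLIN2 was -0.0045 and HMOX1 -0.023 against 2.5 µg/ml alone, and HMOX1 -0.012 without library 1 at 10 µg/ml, the lowest of a range that reached 0.10. Counts of genes whose groups do not overlap rose to 477 above and 350 below without library 3 at 2.5 µg/ml, beside 132 and 124. Leaving out any other pooled library gave 140 to 181 above and 130 to 149 below. Without 1 library at 10 µg/ml the counts reached as many as 519 and 426. Fewer libraries also make separation easier. Genes at an unadjusted p under 0.05 (limma) numbered 2494 without library 3 at 2.5 µg/ml, beside 1478 with all libraries. Without any other pooled library they numbered 1219 to 1510.

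With the replicate number as a block, 4 genes were called, as without it. Same-numbered libraries deviated together little (9 pairs, r from -0.20 to 0.076), yet 6 of 9 correlated best with their own number. Whether the numbers mark paired cultures cannot be told from deviations around means of 3 libraries. Small differences in genes that rest on few reads were not detectable. FPKM alone does not mark such genes, because it is scaled by length. ABCA1, with a pooled mean of 0.604 FPKM, carried 114 to 179 reads, and CCL2, with 3.83 FPKM, carried 37 to 82.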

Other observations

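Further genes stood apart between the groups without passing the test, and were singled out after their values were seen. RHOB, a small GTPase, had 45.2, 45.0 and 40.1 FPKM at 10 µg/ml, against 47.2 to 54.8 in the pooled libraries (log2 fold change -0.25, adjusted p = 0.0620, limma), and averaged 40.3 and 40.2 FPKM at 50 and 100 µg/ml. COMMD8 had 19.4, 19.4 and 19.7 FPKM at 10 µg/ml, against 21.1 to 25.01 in the pooled libraries (-0.23, adjusted p = 0.0902), while it averaged 21.4 and 22.2 FPKM at 50 and 100 µg/ml. KLF2, a transcription factor, had 6.06, 5.69 and 7.339 FPKM at 10 µg/ml, against 7.340 to 8.78 in the pooled libraries (-0.33, adjusted p = 0.117), and averaged 8.07 and 8.80 FPKM at 50 and 100 µg/ml. KLF2 and COMMD8 were thus lowest in mean at 10 µg/ml of the doses compared here, whereas RHOB had lower means still at the higher doses. SNORD30, a small nucleolar RNA inside SNHG1, had 25.3, 27.6 and 26.4 FPKM at 10 µg/ml, against 15.9 to 22.9 in the pooled libraries (0.45, adjusted p = 0.0902, or 0.0219 without library 2 at 2.5 µg/ml), and 14.2 and 19.4 FPKM on average at 50 and 100 µg/ml. With a length of 70 bases, SNORD30 rested on only 23 to 48 reads in each of the libraries compared. SNHG1 lies on the same strand, so these reads may be shared with it.

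The step from 50 to 100 µg/ml uses libraries outside the comparison. Of the 132 genes whose libraries at 10 µg/ml lay above all pooled ones, 64 (48.5%) had a higher mean at 100 than at 50 µg/ml, beside 46.7% of the genes whose groups overlapped. All 6 such NRF2-related genes were higher at 100 µg/ml, by a median of 0.35 on the log2 scale. This was not particular to these 6. Over all 53 tested genes of the NRF2 lists, the median against the pooled libraries was 0.15 with 50 µg/ml and 0.28 with 100 µg/ml. Of the 8 cholesterol genes 3 (37.5%) were higher at 100 µg/ml, with a median difference of -0.017.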
